A study of Mus musculus with 8 samples.

Results

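The regions described here are the narrow intergenic peaks of H3K9me3 in mouse colon crypts: peaks under 10000 bp wide for which the authors' table names no gene within 5 kb, on chromosomes 2 to 19. They numbered 33332 of the 53761 peaks of the table (62.0%), and of 47723 peaks on the same 18 chromosomes. The choice among the peaks of the table used only width, position and the gene annotation. The peaks themselves had been called from these ChIP libraries against the inputs, so each had already passed a filter on level. H3K9me3 was profiled by chromatin immunoprecipitation and sequencing (ChIP-seq) in crypt suspensions from the colon of C57BL/6 mice, which the study's methods describe as males; no age is given in the sources used here. The comparison was between wild-type animals (WT, 3 ChIP libraries) and animals with a Cre-mediated deletion of *Smarcad1* (KO, 3 ChIP libraries), with 1 input library for each genotype. In the KO the *Vil-Cre* transgene, driven by the villin promoter, removes *loxP*-flanked exons that code for the ATP-binding part of the protein; villin is active in the intestinal epithelium, so any other cells in a crypt suspension keep the gene. Whether the WT animals carried the transgene or the floxed allele is not given in the sources used here, nor whether each library came from 1 animal, so the tests measure the spread between libraries. Nothing in the table measures *Smarcad1* RNA or protein or any cell type marker, and the labels for genotype and tissue could not be checked against it.

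H3K9me3 is the histone mark of constitutive heterochromatin. It is laid down by methyltransferases such as Setdb1, Suv39h1 and Suv39h2, is bound by HP1 proteins, and covers many transposon copies, satellite repeats and clustered zinc-finger and olfactory receptor genes. Smarcad1 is an ATP-dependent chromatin remodeler that binds the corepressor Trim28 (KAP1) and has been linked to keeping heterochromatin through replication. Gene-poor DNA is rich in long interspersed elements (LINEs), whereas short interspersed elements (SINEs) such as B1 lie mostly near genes.

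Many of these peaks held repeats. Soft-masked (repeat) letters made up a median of 40.4% of a peak, against 30.6% to 35.8% of the 18 chromosomes as a whole. Among the peaks, 71.4% shared at least 1 sampled word of 24 bases with another of them, simple repeats left out (words with fewer than 12 distinct base triplets). Few shared most of their sequence: 435 of 33332 shared at least 50% of their sampled words with a single other peak. Stretches of 240 bases from 4 peaks that recur in the results are given here from the forward strand of RefSeq GRCm38: the largest decrease and the largest increase in KO, the widest peak of a run of 3 that fell together on chromosome 11, and the peak that shared words with the most others. Capitals mark bases covered by a 24-base word present, on either strand, in at least 10 other narrow intergenic peaks, simple repeats included. Each stretch is the part of its peak with the most such bases, and all 4 were soft-masked throughout.
chr6:48804843-48805082: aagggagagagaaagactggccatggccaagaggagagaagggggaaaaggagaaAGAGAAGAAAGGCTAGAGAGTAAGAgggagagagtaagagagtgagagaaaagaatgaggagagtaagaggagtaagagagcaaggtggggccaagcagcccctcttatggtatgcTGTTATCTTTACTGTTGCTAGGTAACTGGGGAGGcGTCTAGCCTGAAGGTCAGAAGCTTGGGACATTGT
chr14:109785642-109785881: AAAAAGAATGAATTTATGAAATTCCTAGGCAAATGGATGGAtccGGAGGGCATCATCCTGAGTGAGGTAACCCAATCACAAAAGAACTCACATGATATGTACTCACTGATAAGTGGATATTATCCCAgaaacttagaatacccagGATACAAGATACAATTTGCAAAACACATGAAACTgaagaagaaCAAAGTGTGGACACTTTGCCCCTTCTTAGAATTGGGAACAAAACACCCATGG
chr11:20417206-20417445: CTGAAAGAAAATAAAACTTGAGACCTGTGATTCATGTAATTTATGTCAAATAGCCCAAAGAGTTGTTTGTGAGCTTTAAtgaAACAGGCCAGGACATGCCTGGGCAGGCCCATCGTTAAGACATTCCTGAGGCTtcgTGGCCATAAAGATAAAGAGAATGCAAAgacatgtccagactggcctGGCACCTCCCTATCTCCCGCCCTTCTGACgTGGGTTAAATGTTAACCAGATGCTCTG
chr17:17246649-17246888: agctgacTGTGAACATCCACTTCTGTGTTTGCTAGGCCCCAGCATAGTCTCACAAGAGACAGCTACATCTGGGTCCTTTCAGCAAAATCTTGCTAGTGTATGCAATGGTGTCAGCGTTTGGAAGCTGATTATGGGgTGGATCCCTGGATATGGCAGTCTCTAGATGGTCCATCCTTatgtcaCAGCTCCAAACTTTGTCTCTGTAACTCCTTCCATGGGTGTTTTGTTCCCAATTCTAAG
Shared words covered 19.9% of the whole peak with the largest decrease, 50.4% of that with the largest increase, 15.5% of the chromosome 11 peak and 21.0% of the chromosome 17 peak. Among the sampled words, without simple repeats, the most widespread was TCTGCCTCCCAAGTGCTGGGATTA, which belongs to the B1 SINE; it stood in 493 narrow intergenic peaks (1.48%) and in 2.61% of narrow peaks with a gene. The word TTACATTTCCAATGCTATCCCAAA had the opposite order, at 1.06% of narrow intergenic peaks and 0.659% of narrow peaks with a gene. Of the 493 peaks with the B1 word 8 (1.62%) were called in the limma comparison of genotypes, all lower in KO. Among all narrow intergenic peaks 0.681% were called lower, and among all peaks 0.863%. The peaks with the word were also wider, with a median of 1650 bp against 1050 bp, and the difference in shares was not tested.

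The label was checked against a second annotation, since "intergenic" here rests on the authors' gene set. In GENCODE vM21, which also lists noncoding genes, 6712 peaks (20.1%) lay within 5 kb of a gene of any kind, and 1171 lay within 5 kb of a protein-coding gene. Of these, 880 overlapped a protein-coding gene, among them 85 in *Rbfox1*, an RNA-binding splicing regulator, 57 in *Nkain2*, 50 in *Lsamp* and 40 in *Nrg1*. The peaks are therefore called intergenic as the authors' table has them. The median distance to the nearest protein-coding gene was 198 kb, with 62.4% of peaks beyond 100 kb and 10.1% beyond 1 Mb.

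Widths came in steps of 150 bp, from 300 to 9900 bp. The median was 1050 bp, with quartiles at 750 and 1650 bp, and it was 1050 bp on every one of the 18 chromosomes. Peaks under 2 kb made up 85.4%, so the limit of 10 kb lay far out in the tail. The widest were chr4:152764951-152774850 and chr5:126595801-126605700, both 9900 bp, with mean WT levels of 7.52 and 7.35 log2 reads per peak. Just outside the limit stood chr4:152972551-152982600 and chr4:153103351-153113400, both 10050 bp, with 7.33 and 7.64. Together the narrow intergenic peaks covered 43.3 Mb, or 1.97% of 2204 Mb of sequence.

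Spacing, unlike width, differed widely between chromosomes. There were 15.1 peaks per Mb on the 18 chromosomes together, from 6.82 on chromosome 19 and 7.22 on chromosome 11 to 22.2 on chromosome 12 and 22.6 on chromosome 14. The gap to the next narrow intergenic peak had a median of 9.60 kb; it was under 10 kb for 50.8% of 33314 gaps and over 1 Mb for 270. By chromosome the median gap ran from 5.55 kb on chromosome 14 to 37.9 kb on chromosome 19. The longest gap, 4.80 Mb, lay at chr8:119647651-124449750. In all, 3204 peaks touched another peak of some kind with no base between.

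**Figure D1:**
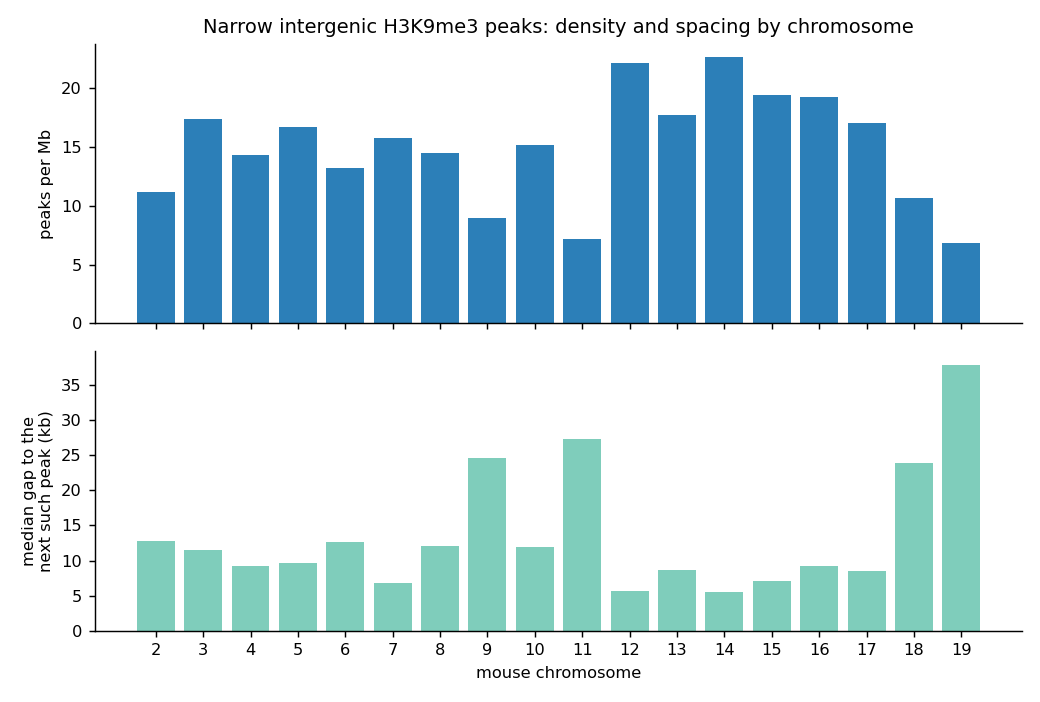
Narrow intergenic peaks per Mb of sequence (upper bars) and the median gap to the next such peak in kb (lower bars) on each of 18 mouse chromosomes. Chromosomes 12 and 14 hold more than 22 peaks per Mb with median gaps of 5.70 and 5.55 kb, whereas chromosome 19 holds 6.82 per Mb with a median gap of 37.9 kb.

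To relate level to spacing, the peaks were grouped by how many other peaks of any kind had their centre within 500 kb on either side, here called neighbours. The median was 54. Chromosome medians ran from 15 on chromosome 19 to 124 on chromosome 14. On chromosomes 11 and 19, 26.1% and 26.4% of the peaks had under 10 neighbours, and on chromosome 14 59.0% had 100 or more.

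Levels are given as deposited, as log2 reads per peak not divided by width, with the distributions of the 6 ChIP libraries matched to one another by the authors. A level is therefore relative to all peaks of the table, and a loss or gain shared by all peaks cannot be seen. Depth was low: the steps of the values correspond to a median of 15, 18 and 19 reads per narrow intergenic peak in the 3 WT libraries and 14, 16 and 18 in the 3 KO libraries. In WT the mean level was 4.08 ± 0.005 (SD over libraries, n = 3). For a single peak the SD between WT libraries had a median of 0.29 log2 units. By chromosome the WT mean ran from 3.93 ± 0.014 on chromosome 12 to 4.22 ± 0.017 on chromosome 19, and per kb of peak from 3.93 on chromosome 14 to 4.12 on chromosome 19 (log2 reads per kb). Narrow peaks with a gene had a WT mean of 4.31 ± 0.006 per peak, but 4.01 per kb against 3.99 per kb for the intergenic ones.

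Reads in the inputs were few, with a median of 10 per peak in WT and 9 in KO, and 636 and 798 peaks held 0 or 1 read. The WT ChIP level exceeded the unscaled WT input by 0.88 ± 0.005 log2 units on average, from 0.77 on chromosome 14 to 0.98 on chromosome 12. With 1 input library per genotype these values have no replicate check on the input side. The SD is that of the ChIP means alone. The peaks were called from these ChIP libraries against both inputs, so a mean excess over input was built into the choice. The difference between the KO and WT inputs, which were not scaled for depth, stayed between -0.12 and -0.08 log2 units on the 18 chromosomes.

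The highest WT levels per kb belonged to 3 peaks that lie on or close to noncoding genes or pseudogenes in GENCODE. The first, chr17:39839851-39849300, overlaps an annotated ribosomal RNA gene and the long noncoding RNA genes *Gm26917*, *Gm42418* and *AY036118*. Its value was 13.2 in WT1, WT2, WT3, KO1 and KO3 and 12.9 in KO2. The value 13.2 is the shared maximum of the matched distributions, so this peak was at the ceiling in 5 of 6 libraries, and the inputs held 3720 (WT) and 4282 (KO) reads there. The second, chr9:35304751-35306100, overlaps the noncoding gene *Gm33838* and had 10.4, 9.86 and 10.1 in WT and 10.0, 9.58 and 9.86 in KO, beside 690 and 722 input reads. The third, chr11:109011151-109012500, lies 60.4 kb from *Axin2*, close to the pseudogene *Gm11668*, and had 8.52, 8.38 and 8.25 in WT and 8.66, 8.16 and 8.46 in KO. None of these 3 was called in the comparison of genotypes (limma adjusted p of 0.688, 0.193 and 0.940), and the WT and KO values overlapped or touched at each.

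The central comparison asked whether loss of *Smarcad1* changed H3K9me3 at these peaks. In the limma fit across all 53761 peaks, 260 narrow intergenic peaks were called at an adjusted p under 0.05 (0.780%), against 1.66% of all peaks. Most of the called peaks fell: 227 were lower in KO (0.681%, against 0.863% of all peaks) and 33 were higher (0.0990%, against 0.796%). At an unadjusted limma p under 0.05 there were 2915 (8.75%, against 10.6% of all peaks), of which 1711 were lower and 1204 higher. The 3 KO and 3 WT values did not overlap at 14.0% of the peaks (15.6% of all peaks). Higher in KO throughout were 6.56% (7.2% of all peaks) and lower throughout 7.46% (8.42%). Among the limma calls at an adjusted p under 0.05 the share of increases was thus further below that of all peaks than the share of decreases was, while the shares without overlap lay close to those of all peaks in both directions.

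The number of calls depended on the variance model and on the WT libraries. With a prior variance that does not follow the mean level, limma called 8 peaks, 6 of them lower in KO. Without WT1, WT2 or WT3 the counts were 133, 113 and 139, while leaving out a KO library left 187 to 245. With voom on the reads recovered from the value steps, 185 of 32895 peaks were called (0.562%, against 1.09% of all peaks with recovered reads), 165 of them lower. Decreases outnumbered increases under each of these settings. Shares over all peaks were computed only for the main fit and for voom. Whether the other counts here are particular to narrow intergenic peaks was not tested. With the input subtracted, however, 5841 peaks were called higher and 4006 lower; in that setting the 3 values of a genotype share 1 input, whose counting error enters as a difference between genotypes. Without the peaks that GENCODE places within 5 kb of a gene, 172 were called lower and 22 higher.

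The peaks that fell had a median log2 fold change of -0.97, down to -2.23. They had a median width of 1950 bp and a median of 13 neighbours, and 104 of the 227 (45.8%) lay within 20 kb of a protein-coding gene, against 16.4% of all narrow intergenic peaks. The peaks that rose had a median log2 fold change of 1.12, between 0.68 and 2.21, a median width of 1350 bp and a median of 22 neighbours. The share called went with width, from 0.0226% of peaks under 600 bp to 3.11% of those of 3000 bp or more. Decreases made up 48 of the 55 calls in the widest class.

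Narrow peaks with a gene within 5 kb had another balance. Of 14113 such peaks on the same chromosomes 343 were called higher (2.43%) and 200 lower (1.42%). The increases were concentrated, with 93 on chromosome 8 (10 lower) and 71 on chromosome 10 (20 lower). The median chromosome had 13 called higher and 10 lower, and on some chromosomes decreases led. The increases on chromosomes 8 and 10 also enter the share over all peaks. Reweighted to the widths of the intergenic peaks these shares became 1.99% and 1.18%. In every width class from 600 bp up, more peaks with a gene were called higher than lower, and fewer intergenic ones. Of 82 intergenic peaks of 10 kb or more 3 were called, all lower. These shares are given as counts, and the difference between the groups was not tested.

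**Figure D2:**
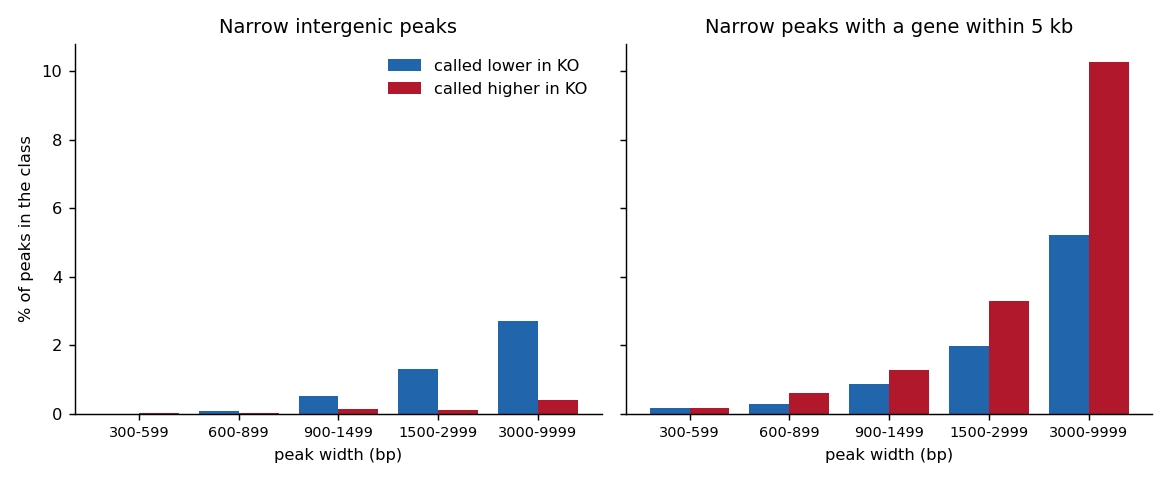
Share of peaks called lower (blue) or higher (red) in KO by limma at an adjusted p under 0.05, in 5 classes of peak width, for narrow intergenic peaks (left) and narrow peaks with a gene within 5 kb (right). At 3000 bp and above 2.72% of the intergenic peaks were called lower and 0.396% higher, against 5.22% and 10.3% of the peaks with a gene.

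Averaged over all narrow intergenic peaks the genotypes did not differ beyond the spread of the libraries. The mean level was 4.08, 4.07 and 4.08 in WT1 to WT3 and 4.07, 4.07 and 4.09 in KO1 to KO3, a difference of -0.00081 log2 units. The distributions were matched over all peaks, where the difference was -2.2e-06, and these peaks make up 62.0% of them. Matching thus holds this mean near 0, and it cannot show whether the genotypes share a general loss or gain. Individual chromosomes did differ. On chromosome 19 the library means were 4.21, 4.24 and 4.22 in WT and 4.06, 4.07 and 4.02 in KO, a difference of -0.17. All 3 KO libraries lay below all 3 WT libraries there, and likewise on chromosomes 6, 9, 11 and 18. On chromosome 12 the means were 3.94, 3.94 and 3.92 in WT and 3.98, 4.04 and 3.98 in KO, a difference of 0.07, and on chromosome 14 the difference was 0.05; the KO libraries lay above all WT libraries on both. On the other 11 chromosomes the groups overlapped.

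Called peaks followed this order only in part. Decreases outnumbered increases on 18 of 18 chromosomes. Since 227 of all 260 calls were lower, this adds little to the total. The share called was 3.27% on chromosome 19 (11 lower, 2 higher of 397) and 1.87% on chromosome 11 (15 lower, 1 higher of 857), and 0.364% on chromosome 14 (7 lower, 3 higher of 2750). On chromosome 12, with the highest difference, it was 0.617% (9 lower, 7 higher of 2595), above the 0.492% on chromosome 7. Across the 18 chromosomes the difference between KO and WT went with the number of peaks per Mb (Pearson r = 0.886, Spearman rho = 0.853, n = 18 chromosomes), 1 of 11 pairs of measures computed. The chromosomes share the same 6 libraries, so this is a description of them and carries no test. The difference between the inputs did not follow it (Pearson r = -0.094 with the difference between KO and WT, n = 18). Narrow peaks with a gene shared the chromosome order in part, from -0.12 on chromosome 19 to 0.17 on chromosome 8. Their differences went with those of the intergenic peaks (Pearson r = 0.596, Spearman rho = 0.759, n = 18), another of the 11 pairs.

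**Figure D3:**
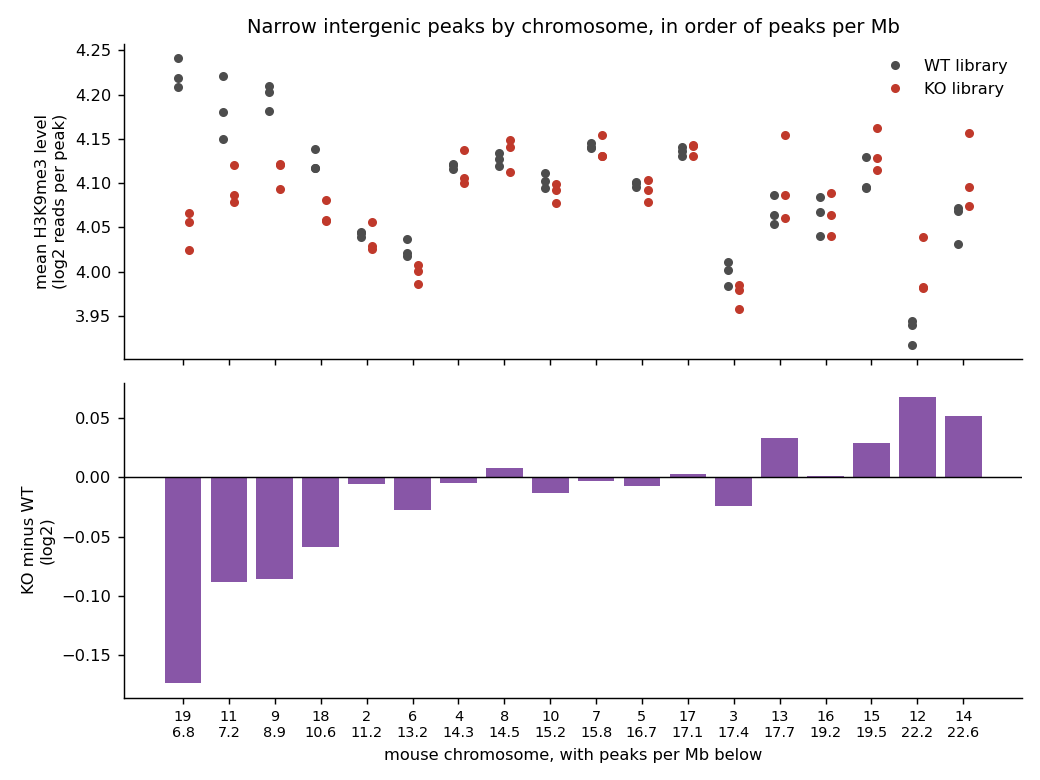
Mean H3K9me3 level over the narrow intergenic peaks of each chromosome in the 3 WT (grey) and 3 KO (red) libraries, in log2 reads per peak (upper panel), and the difference of the genotype means (lower panel), with chromosomes in order of peaks per Mb. The difference runs from -0.17 on chromosome 19, with 6.82 peaks per Mb, to 0.05 on chromosome 14 and 0.07 on chromosome 12, with 22.6 and 22.2.

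The same order appeared within chromosomes when peaks were grouped by neighbours, a grouping chosen after the chromosome values had been seen. At the 3266 peaks with under 10 neighbours the mean level was 4.31, 4.37 and 4.35 in the WT libraries and 4.20, 4.20 and 4.14 in the KO libraries, a difference of -0.16. At the 6745 peaks with 10 to 24 neighbours the means were 4.28, 4.30 and 4.29 in WT and 4.18, 4.17 and 4.12 in KO, a difference of -0.13. In both classes all KO libraries lay below all WT libraries, and this held on 18 of 18 chromosomes taken singly, with differences from -0.22 on chromosome 19 to -0.095 on chromosome 12.

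At 25 to 49 neighbours the difference was -0.0025 (5777 peaks) and the libraries overlapped. At 50 to 99 it was 0.06 (9893 peaks), and at 100 or more it was 0.11 (7651 peaks). In this densest class the means were 4.08, 4.05 and 4.06 in WT and 4.14, 4.18 and 4.20 in KO. All KO libraries lay above all WT libraries there, and did so on 12 of the 14 chromosomes with at least 20 such peaks. Peaks in sparse and in dense surroundings thus differed from WT in opposite directions, and since the distributions had been matched, one is measured against the other.

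Called peaks were mostly decreases in every class but the densest. Of the 227 decreases 194 (85.5%) had under 25 neighbours, as did 30.0% of all narrow intergenic peaks. In the sparsest class 69 were called lower and 5 higher; in the next 125 and 12. At 25 to 49 neighbours 25 were called lower and 4 higher, and at 50 to 99, where the mean difference was positive, 7 were called lower and 3 higher. In the densest class 1 was called lower and 9 higher. The sparsest peaks were also somewhat wider (median 1200 bp, against 1050 bp in the densest class) and better covered (median of 21 WT reads, against 17), richer in GC (43.2% against 40.6%) and richer in soft-masked bases (42.6% against 35.2%). Their part in the counts was not tested. The means kept their sign when library values were centred within 50 classes of GC content, at -0.16 in the sparsest and 0.10 in the densest class. They also kept it with the input subtracted, at -0.086 and 0.22.

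**Figure D4:**
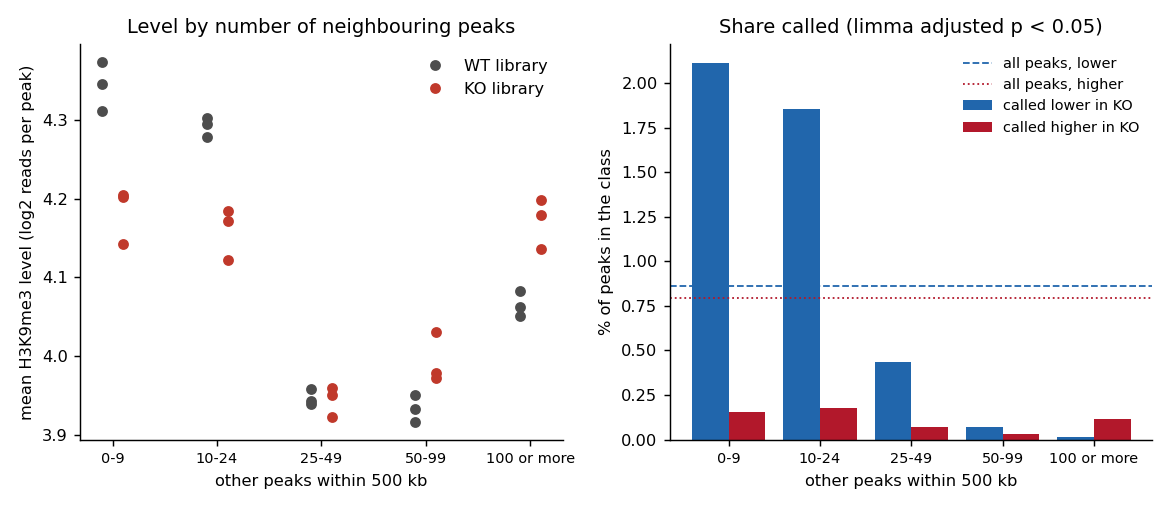
Narrow intergenic peaks by the number of other peaks within 500 kb on either side. Left, mean H3K9me3 level in log2 reads per peak in each of the 3 WT (grey) and 3 KO (red) libraries; right, share called lower (blue) or higher (red) in KO by limma at an adjusted p under 0.05, with the shares over all peaks as lines at 0.863% (dashed) and 0.796% (dotted). KO libraries lie below WT libraries by 0.16 at under 10 neighbours and above them by 0.11 at 100 or more.

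Enrichment over input shifted with the neighbours in opposite ways in the 2 genotypes. In WT the ChIP level exceeded the input by 0.96 log2 units in the sparsest class and by 0.82 in the densest. In KO the corresponding excess over the KO input was 0.88 and 1.04. Narrow peaks with a gene had similar differences between KO and WT in these classes, at -0.15 for under 10 and 0.12 for 100 or more neighbours. Their calls did not: in the class of 25 to 49 neighbours 82 were called higher and 18 lower, against 4 and 25 of the intergenic peaks. The 2 groups of peaks differ in width and reads as well, and this contrast was not tested.

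Distance to a protein-coding gene gave the same picture, and the 2 measures go together, since peaks within 20 kb of such a gene had a median of 20 neighbours and those over 1 Mb away 87. The difference between KO and WT was -0.085 for the 5458 peaks within 20 kb, of which 104 were called lower and 8 higher. It was 0.067 for the 3366 peaks over 1 Mb away, of which 1 was called lower and 3 higher. By soft-masked content the difference moved less, from 0.049 in peaks under 20% masked to -0.028 in those of 40% to 59%.

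On the scale of 10 Mb, 221 windows held at least 30 narrow intergenic peaks. In 88 of them all KO library means lay below all WT means, and in 20 above. Each window counts once however many peaks it holds, and the same count over all peaks was not made. Across windows the difference went with the number of narrow intergenic peaks held (Pearson r = 0.771, Spearman rho = 0.796), and its median was -0.045. The lowest difference, -0.35, was on chromosome 16 between 20 and 30 Mb, where 79 peaks had means of 4.70, 4.78 and 4.71 in WT and 4.42, 4.37 and 4.35 in KO, and 6 of them were called lower. The highest, 0.16, was on chromosome 13 between 60 and 70 Mb, where 613 peaks had 3.94, 3.89 and 3.86 in WT and 3.99, 4.20 and 3.97 in KO. KO2 stood apart from the other KO libraries in that window. On chromosome 12, KO2 was likewise the highest of the 6 libraries.

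Single peaks changed by more than these means. The largest decrease, chr6:48804751-48805650, lies 28.2 kb from *Tmem176b*, a transmembrane protein gene, and is the first sequence shown above. Its level was 4.57, 4.43 and 4.38 in WT1 to WT3 and 2.87, 0.24 and 3.56 in KO1 to KO3. The log2 fold change was -2.23 ± 0.47 (SE; limma adjusted p = 0.00266). The WT libraries lay close together with 21 to 24 reads, whereas the KO libraries were spread from at most 1 read, the lowest step, to 13 reads. Without KO2 the log2 fold change was -1.24 (limma adjusted p = 0.0438), and with the input subtracted the call was lost (limma adjusted p = 0.0688). The second, chr7:79216051-79217100, lies 56.1 kb from *Abhd2*, which codes for a lipid hydrolase. It had 4.57, 4.79 and 4.84 in WT and 3.57, 2.32 and 2.64 in KO, a log2 fold change of -1.89 ± 0.33 (SE; limma adjusted p = 0.000144). All KO libraries lay below all WT libraries, with KO1 the closest to them.

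Another decrease, chr9:39801901-39802500, lies 5.27 kb from the olfactory receptor gene *Olfr969* and is soft-masked over its whole length. It had 4.09, 3.86 and 3.80 in WT and 2.87, 3.02 and 0.71 in KO, a log2 fold change of -1.72 ± 0.48 (SE; limma adjusted p = 0.045). KO3 alone held 2 reads, the others 6 and 8, and the KO input held 2 reads against 8 in WT. The call was lost without any 1 WT library, with limma adjusted p from 0.130 to 0.239, under voom (adjusted p = 0.0580) and without KO3, where the log2 fold change was -0.97. Near *Cdk6*, a cell cycle kinase gene 174 kb away, chr5:3166501-3167250 had 4.09, 4.25 and 4.26 in WT and 2.32, 2.59 and 2.64 in KO. Here both groups were tight and apart, with a log2 fold change of -1.68 ± 0.37 (SE; limma adjusted p = 0.00502); without WT2 or WT3 the limma adjusted p was 0.0602 and 0.0621. At chr10:94983301-94984350, 38.5 kb from the semaphorin receptor gene *Plxnc1*, levels were 4.70, 4.75 and 4.75 in WT and 3.08, 2.82 and 3.31 in KO, a log2 fold change of -1.66 ± 0.30 (SE; limma adjusted p = 0.000294). This decrease kept its call under every alternative computed for it.

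The largest increase, chr14:109785451-109785900, is the second sequence shown above. It lies 871 kb from *Slitrk1*, a neuronal membrane protein gene, among 151 neighbours, and touches another peak. Its level was 1.40, 2.67 and 1.22 in WT and 3.84, 3.94 and 4.13 in KO, with 2, 7 and 3 reads in WT against 12, 15 and 19 in KO. The log2 fold change was 2.21 ± 0.48 (SE; limma adjusted p = 0.00393), and the call was lost without KO3 (limma adjusted p = 0.0698). The second, chr6:121087201-121088550, had 3.01, 2.45 and 2.96 in WT and 5.14, 5.33 and 4.55 in KO, a log2 fold change of 2.20 ± 0.31 (SE; limma adjusted p = 2.06e-06). GENCODE places this peak inside *Mical3*, which codes for an actin-oxidising enzyme. Its WT level was 1.20 log2 units below the unscaled WT input, which held 16 reads.

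Of the other increases, chr10:99215251-99216150, 17.2 kb from the centriole gene *Poc1b*, had 3.01, 3.19 and 2.34 in WT and 4.16, 5.04 and 4.20 in KO (log2 fold change 1.62 ± 0.35 SE, limma adjusted p = 0.00321). At chr19:11090551-11091450, 5.37 kb from *1700017D01Rik* and over the pseudogene *Gm336*, levels were 3.37, 2.18 and 2.96 in WT and 4.34, 4.35 and 4.28 in KO (1.49 ± 0.35 SE, limma adjusted p = 0.0104). At chr2:47200051-47200800, the nearest protein-coding gene is the activin receptor gene *Acvr2a*, 1613 kb away; levels were 3.21, 3.19 and 2.05 in WT and 4.34, 4.48 and 3.86 in KO (1.41 ± 0.37 SE, limma adjusted p = 0.0274). Left-out libraries ended the call at each of these 3: without KO2 near *Poc1b* (limma adjusted p = 0.117), without WT2 or any 1 KO library near *1700017D01Rik* (0.0526 to 0.115), and without WT3, KO1 or KO2 near *Acvr2a* (0.125 to 0.229). Among the 5 increases and 5 decreases, those near *Mical3*, *Cdk6* and *Plxnc1* kept their call without the variance trend. With the input subtracted the log2 fold change was 2.84 near *Poc1b*, 2.95 near *1700017D01Rik*, 1.47 near *Slitrk1* and -1.03 near *Cdk6*. At all 5 increases the KO values lay above every WT value, as the choice of these peaks required, and at 4 of them the mean WT level lay below the unscaled WT input. A WT level below input was found at 7 of the 33 increases, 0 of the 227 decreases and 949 of all 33332 narrow intergenic peaks. The WT level also enters the call, so these counts are no separate measurement.

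**Figure D5:**
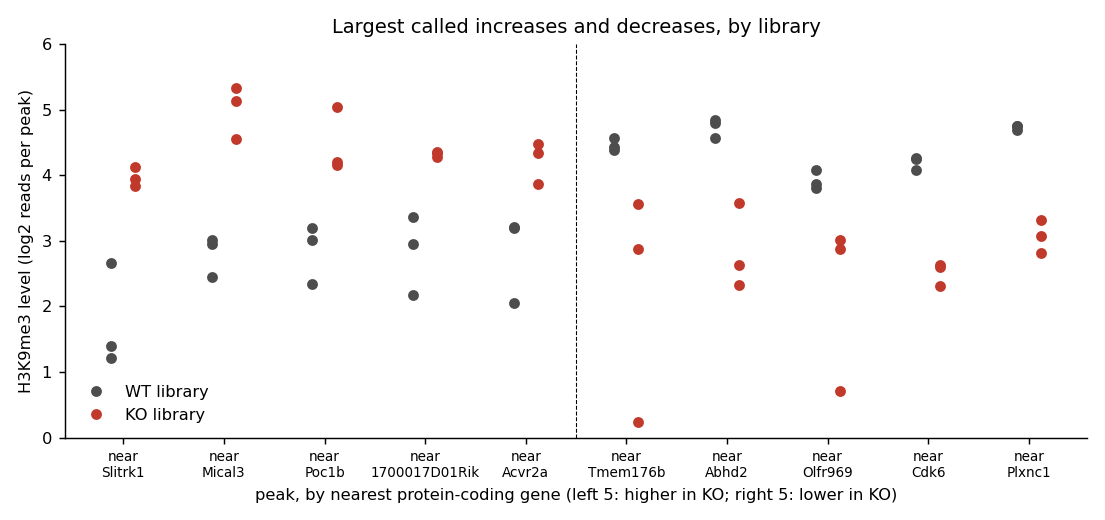
H3K9me3 level in log2 reads per peak in each WT (grey) and KO (red) library at the 5 largest called increases (left of the dashed line) and the 5 largest called decreases (right), named by the nearest protein-coding gene. WT values at the decreases span 3.80 to 4.84, and KO values at the increases span 3.84 to 5.33; KO2 near *Tmem176b*, at 0.24, and KO3 near *Olfr969*, at 0.71, lie far below the other KO libraries.

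Neighbouring peaks were sometimes called together. There were 12 runs of consecutive called peaks with gaps of at most 100 kb, holding 25 peaks, and in all 12 the peaks were lower in KO. Of all calls 87.3% were lower, and runs were not counted over all peaks. The runs spanned from 2250 bp on chromosome 16 to 59700 bp on chromosome 9. Whether the closest peaks are pieces of 1 region was not tested. A single run held 3 peaks, over 31050 bp of chromosome 11 at 57.5 to 80.3 kb from *Slc1a4*, the gene of a neutral amino acid transporter. Its widest peak, chr11:20413051-20421300, is the third sequence shown above. It had 7.82, 7.94 and 7.95 in WT and 7.31, 7.31 and 7.36 in KO, a log2 fold change of -0.57 ± 0.12 (SE; limma adjusted p = 0.00129). The other two, chr11:20390251-20392800 and chr11:20409301-20412750, had log2 fold changes of -0.79 and -0.77. All 3 lost their call with the input subtracted and without the variance trend, and the last also without WT2 (limma adjusted p = 0.0582); the log2 fold change of the first was -0.099 with the input subtracted. At all 3 the KO libraries lay below the WT libraries, by margins that were small beside those of the largest changes.

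The peak that shared words with most others, chr17:17238151-17247300, is the fourth sequence shown. It shared words with 2756 narrow intergenic peaks and overlaps the noncoding gene *Gm5165*, 91.3 kb from *Zfp97*, a zinc-finger gene. Its level was 7.76, 7.82 and 7.74 in WT and 7.81, 7.82 and 7.62 in KO. The groups overlapped, and the log2 fold change was -0.03 ± 0.11 (SE; limma adjusted p = 0.965).

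Grouped by the family of the nearest protein-coding gene, the peaks fell on both sides of 0. The 128 peaks nearest to a *Cyp* gene (cytochrome P450 enzymes) had a mean difference of -0.25 log2 units, with 5 called lower, and the 263 nearest to an *Slc* gene (membrane transporters) had -0.17, with 7 called lower. The 13 nearest to a *Ugt* gene had -0.22, with 1 called lower. On the other side stood the 1284 peaks nearest to a *Pcdh* gene (protocadherins), with 0.074, and the 883 nearest to a *Zfp* gene, with 0.046. Of the former 2 were called, both higher, and of the latter 2, both lower. Many of these peaks were far from the gene that names them. The median distance was 820 kb for *Pcdh*, with 10 genes, 44.8 kb for *Zfp*, 19.2 kb for *Cyp* and 62.2 kb for *Slc*. Distance itself went with the difference, and its part in the values by family was not tested. The 656 peaks near olfactory receptor genes (*Olfr*), the 758 near vomeronasal receptor genes (*Vmn*) and the 19 near defensin genes (*Defa*, *Defb*) had -0.025, -0.0025 and 0.0053; the 5 and 2 calls near the receptor genes were all lower in KO. The 1815 near *Gm* genes had 0.055, with 4 called higher and 3 lower. The share called was 3.91% for *Cyp*, 2.66% for *Slc* and at most 0.762% for *Olfr*, *Vmn*, *Zfp*, *Pcdh* and *Gm*, against 0.780% of all narrow intergenic peaks and 1.66% of all peaks. Median neighbours did not follow this order throughout: they were 25.5 for *Cyp*, 18 for *Slc* and 94.5 for *Pcdh*, but 102 for *Vmn* and 15 for the defensin genes, both with a difference near 0.

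Distances were also taken from listed genes that mark the cells of a colon crypt or act on H3K9 methylation. Of all 19599 protein-coding genes on the 18 chromosomes 7057 had a narrow intergenic peak within 50 kb. The corresponding counts were 3 of 9 stem and cycling genes, 3 of 9 goblet cell genes, 4 of 10 colonocyte genes, 2 of 8 enteroendocrine and tuft cell genes, 1 of 4 immune genes, 1 of 3 stromal genes and 6 of 15 genes of the H3K9 methylation pathway. These 58 genes had 56 distinct nearest peaks. At 41 genes the nearest peak had a negative log2 fold change, as did 57.9% of all narrow intergenic peaks within 20 kb of a protein-coding gene and 55.8% of those at 20 to 100 kb. Of the 58 genes 2 had a nearest peak that was called, both lower in KO, as 481 of all protein-coding genes (2.45%) did in either direction. The distance from *Smarcad1* itself to its nearest peak was 10.2 kb, and that peak had a log2 fold change of -0.24 (limma adjusted p = 0.819).

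The 2 called peaks lie near *Axin2*, a feedback inhibitor of Wnt signalling in crypt stem cells, and near *Clca1*, which codes for a secreted protein of goblet cells. They do not stand for their lists. Of the 9 stem and cycling genes 5 had a nearest peak with a negative log2 fold change (median -0.048, highest 0.13). Of the 9 goblet cell genes 7 did (median -0.15, highest 0.019), with 1 called in each list. At chr11:108999301-109002300, 48.5 kb from *Axin2*, levels were 6.35, 6.30 and 6.36 in WT and 5.87, 5.36 and 5.60 in KO. The KO libraries all lay below the WT libraries, with a log2 fold change of -0.73 ± 0.17 (SE; limma adjusted p = 0.00696); the call was lost without KO2 (limma adjusted p = 0.0751) and with the input subtracted (0.285). At chr3:144940651-144942450, 61.4 kb from *Clca1*, levels were 5.60, 5.04 and 5.41 in WT and 3.57, 4.28 and 4.13 in KO. The groups were again apart, with a log2 fold change of -1.36 ± 0.24 (SE; limma adjusted p = 0.000219). Both calls were lost without the variance trend. In crypt suspensions a change in the mark within cells and a change in the mix of cells cannot be told apart.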

How the data were processed

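H3K9me3 ChIP-seq was available for 3 WT and 3 KO colon crypt libraries, with 1 input per genotype. Per the study's methods and the submitters' processing notes, reads were trimmed with Trim Galore, mapped to GRCm38 with Bowtie2 2.3.2, filtered to a mapping quality of at least 20 and deduplicated, and MACS peaks were called in SeqMonk once over all ChIP libraries against both inputs (fragment size 300 bp, p threshold 1e-05), so peak calling cannot be compared between replicates. For ChIP libraries the authors deposited the log2 of the read count in each peak, with a lower limit, after matching the 6 distributions to one another. For inputs they deposited log2 counts without scaling or matching. A second deposited table holds the authors' own test of KO against WT (p-values and fold changes) and was not used. All 8 sample columns of the table of all peaks were mapped by their titles.

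Genotypes were compared with limma 3.58.1 (R 4.3.3) in a fit over the whole table (53761 peaks, log2 scale), the prior variance following the mean level, two-sided, Benjamini-Hochberg adjusted over all peaks. The design allowed for raw counts, and the table held none. Reads per ChIP peak were recovered as the rank of each distinct value, up to 100 reads. Because the values have a lower limit, the lowest rank stands for at most 1 read. Other values were computed in Python 3.11.15 with numpy 2.4.6, pandas 2.3.3 and scipy 1.17.1, sequences were read from RefSeq GRCm38, and distances used GENCODE vM21. Words of 24 bases were sampled at about 1 in 16, words with fewer than 12 distinct triplets left out. Means over peaks are given per library without a p-value. Alternatives were another variance model, normalization, input subtraction, a replicate block, stricter thresholds, voom, a level filter, width and leaving out each library. Peaks were named by rule: the 5 largest called increases and decreases without overlap of the groups, runs of at least 3 called neighbours, the 3 highest WT levels per kb among peaks of at least 1 kb, those beside the width limit, the one sharing words with most others and the longest gap; the 2 peaks near *Axin2* and *Clca1* are the called ones among those nearest to listed genes. The peaks, gene lists and rules were chosen with earlier results of these data known.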

Additional observations from a re-analysis of the deposited data

How the results depend on the processing

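The 260 calls were within 1.5 times under a level filter, further centring or quantile normalization, voom, GC centring, the limit of 5000 bp and without peaks near a GENCODE gene, and without 1 KO library, where 187 to 245 were called and 144 to 185 of the 260 were among them. They were 8 without a variance trend, 111 at an adjusted p under 0.01 (limma) and 121 with a log2 fold change of at least 1. With the input subtracted they were 9847, 149 of them among the 260. Except for voom, the share over all peaks was not computed under these alternatives. Leaving out 1 library gave 113 to 245. The GC, GENCODE and neighbour settings were chosen after seeing the data. Deviations of same-numbered WT and KO libraries had correlations of -0.0013, 0.019 and 0.016 across peaks. Those of differently numbered libraries ran from -0.024 to 0.0074. With so few reads per peak these correlations cannot decide whether the numbers pair the libraries. With the replicate block 247 peaks were called, 30 higher and 217 lower.

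The mean difference between KO and WT over all narrow intergenic peaks was -0.0091 with medians, -0.012 for peaks with a mean level of at least 4 and 0.10 with the unscaled inputs subtracted; leaving out 1 library gave -0.0051 to 0.0018. With the inputs subtracted it was -0.086 at under 10 neighbours and 0.22 at 100 or more. Without 1 library these were -0.18 to -0.14 and 0.092 to 0.12. The WT level was 4.05 with medians and 4.05 under 5000 bp, and WT over input was 0.80 with medians and 0.64 at peaks with at least 10 input reads. The median gap was 9.90 kb under 5000 bp. The excess of calls among narrow peaks with a gene was 2.39 percentage points at equal widths, from 3.07.

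Of the 15 called peaks named, those near *Axin2* and *Clca1* included, 2 kept their call under every alternative, 12 lost it without a variance trend and 8 when some library was left out. The decrease near *Olfr969* changed sign with the input subtracted, to 0.28, where the KO input held 2 reads. Depth limits single peaks: 14 to 19 reads in the median peak leave changes of small size undetectable.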
